A study of Mus musculus with 4 samples.

Results

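The miR-33 hairpin lies inside an intron of Srebf2, the gene of the transcription factor SREBP2, and gives rise to the mature strands miR-33-5p and miR-33-3p. Both of them, 2 of the 942 mature miRNAs counted, were followed here in small RNA libraries from the brain cortex of 4 mice aged 9 months. The 2 wild-type mice (WT1 and WT2) and the 2 AD mice (APP3 and APP4) share the B6C3 strain, and the AD mice also carry APPswe, a mutant amyloid precursor protein, and PS1deltaE9, a mutant presenilin. The paper's methods give 2 sibling pairs, WT1 with APP4 and WT2 with APP3, so each pair holds 1 mouse of each genotype. The promoter that drives the transgenes and the sex of the mice are not given in the sources used here. miR-33 was chosen by its measured levels, since the RPM of miR-33-5p was higher in the AD mouse of both sibling pairs, and differences between the genotypes are therefore given for both arms as a description and without a p-value.

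SREBP2 switches on the genes of cholesterol synthesis and uptake when a cell is short of sterol. miR-33-5p, made from the same primary transcript, represses Abca1, the transporter that loads cholesterol and phospholipid onto apolipoproteins, and it is known for lowering cholesterol efflux from liver cells and macrophages. In the brain, Abca1 of glial cells adds lipid to apolipoprotein E, whose lipidation affects the deposition and clearance of amyloid β, the peptide cut from the amyloid precursor protein. The human genome holds a further copy of the miRNA in SREBF1, which the mouse lacks.

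The sequences of the mature arms are shown first, because the seed (bases 2 to 8, in capitals) decides which transcripts a miRNA can pair with. They are RefSeq entries on GRCm38.p6, and both arms of miR-33 were found there.
miR-33-5p: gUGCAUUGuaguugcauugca
miR-33-3p: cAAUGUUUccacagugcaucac
The 5p arm covers chromosome 15 from 82198127 to 82198147 on the plus strand, and the 3p arm from 82198167 to 82198188. The seed of miR-33-5p is written into the 21 bases of the arm in 2 copies, one starting at base 2 and the other at base 13. The seed of miR-33-3p occurs 1 time in its 22 bases. Among the 1679 mature mouse miRNAs of RefSeq, no other had the seed of either arm. miR-409-3p shares the first part of the 3p seed. The nearest other mature sequence was 7 single-base edits away from miR-33-5p and 8 from miR-33-3p. No other mature sequence came within 2 edits of either arm. The paper's methods give at most 2 mismatches and 2 changed bases at each end for the matching of reads, and also state that none was allowed against miRBase, so which rule made the counts is not clear. The search covered the 754 of the 942 counted miRNAs that have a RefSeq sequence.

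The hairpin of miR-33 is shown whole, with both mature arms in capitals, since the arms are compared with each other in the results.
Mir33: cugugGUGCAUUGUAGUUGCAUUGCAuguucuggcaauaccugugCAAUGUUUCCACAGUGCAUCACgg
It covers 69 bases of chromosome 15, from 82198122 to 82198190 on the plus strand of GRCm38. In GENCODE vM21 it lies in intron 16 of the 19-exon transcript of Srebf2, which runs from 82147181 to 82205379 on the same strand. This intron is 1848 bases long, and the hairpin begins 336 bases into it. It lies in the same intron of 2 further protein-coding Srebf2 transcripts. Folded with RNAfold, the hairpin had a minimum free energy of -32.2 kcal/mol, with 16 of the 21 bases of miR-33-5p paired with the 3p arm. All 7 seed bases of miR-33-5p were paired in this structure, and 5 seed bases of miR-33-3p.

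The match to the miR-33-5p seed in a messenger RNA reads CAATGCA. Searched on the sense strand, with overlapping matches counted, it was found in the 3′ UTR of 8 of 9 genes reported as miR-33-5p targets, in 11 places. For comparison, 7.49% of the 19908 protein-coding genes with a 3′ UTR of at least 100 bases held it at least 1 time, and 0.0753% held it at least 3 times. The median 3′ UTR of these genes had 1043 bases, so longer ones have more room for a match. The 9 genes were chosen as reported targets of miR-33-5p, so a match in them is no independent finding. Abca1 had 3 matches between bases 135 and 156 of its 3′ UTR of 3156 bases, and the first of them overlaps the next. Abcg1, a transporter that passes cholesterol to lipoprotein particles, had 2 matches. Crot, which moves fatty acids out of peroxisomes, had 1. The windows below are cut from the longest annotated 3′ UTR of each gene on GRCm38, with the matches in capitals.
Abca1: cactattCAATGCAATGCActtCAATGCAa
Abcg1: actaacgcaacgCAATGCAacgCAATGCAg
Crot: aaagtctcctgtgttgcaaccaCAATGCAa
The windows cover chr4:53033786-53033815 on the minus strand, chr17:31114990-31115019 on the plus strand and chr5:8966685-8966714 on the minus strand. Cpt1a and Hadhb of fatty acid oxidation, the kinase subunit Prkaa1, the deacetylase Sirt6 and the insulin receptor substrate Irs2 had 1 match each, and the bile salt exporter Abcb11 had 0. The match to the seed of miR-33-3p, AAACATT, was found in 2 of the same 9 genes, Cpt1a and Prkaa1, and in 19.9% of all genes searched. The 3′ UTR of Srebf2 itself had 0 matches to the 5p seed and 1 to the 3p seed. Messenger RNA was not measured in these mice, and a match is no measure of repression.

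The libraries held between 19048747 and 26085776 miRNA reads, and the counts were scaled to reads per 1000000 miRNA reads of each library (RPM). At these depths 3 reads, the smallest number read as a signal, correspond to between 0.115 and 0.157 RPM. Both arms were well above this level in each library, yet rested on between 76 and 191 reads, so that counting error alone is wide. The intervals given are 95% Wilson intervals and cover counting error only, since PCR copies of a molecule are not independent.

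miR-33-5p was higher in both AD mice than in both wild-type mice, and miR-33-3p, cut from the same hairpin, was not. miR-33-5p had 4.60 RPM in WT1 (120 reads, interval 3.85 to 5.5) and 4.26 RPM in WT2 (94 reads, 3.48 to 5.21). In the AD mice it had 6.68 RPM in APP3 (142 reads, 5.67 to 7.87) and 10.03 RPM in APP4 (191 reads, 8.70 to 11.6). The order from low to high was therefore WT2, WT1, APP3 and APP4. The groups did not overlap, and the lower AD mouse lay 1.45-fold above the higher wild-type mouse. The means were 4.43 ± 0.242 RPM (SD, n = 2) in the wild-type mice and 8.35 ± 2.37 RPM (SD, n = 2) in the AD mice, a ratio of 1.89. In these data 27.0% of the 623 miRNAs with enough reads to be tested had both AD mice above both wild-type mice, and 39.0% were higher in the AD mouse of both sibling pairs, which is what miR-33-5p was chosen for.

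Among the wild-type mice, miR-33-3p had 3.45 RPM in WT1 (90 reads, 2.81 to 4.24) and 4.39 RPM in WT2 (97 reads, 3.60 to 5.36). Among the AD mice it had 3.57 RPM in APP3 (76 reads, 2.86 to 4.47) and 4.20 RPM in APP4 (80 reads, 3.37 to 5.23). The order was WT1, APP3, APP4 and WT2, so the wild-type mice held both ends of the range and the AD mice lay between them. The highest library was 1.27-fold above the lowest. The means were 3.92 ± 0.667 RPM (SD, n = 2) and 3.89 ± 0.443 RPM (SD, n = 2) in wild-type and AD mice, a ratio of 0.991.

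**Figure D1:**
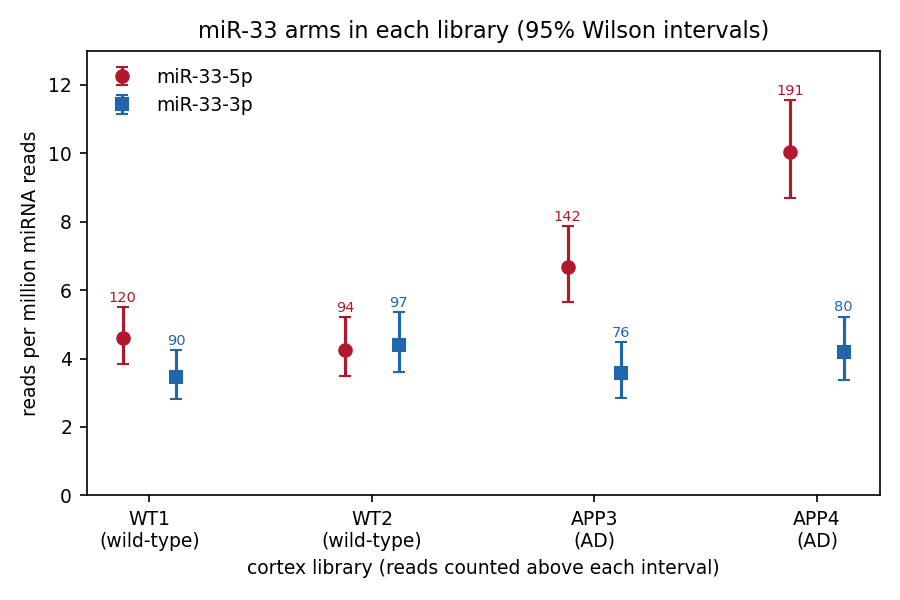
Level of miR-33-5p (circles) and miR-33-3p (squares) in RPM in each cortex library, with 95% Wilson intervals for counting error and the number of reads above each interval. miR-33-5p lies at 4.26 to 4.60 in the wild-type mice and at 6.68 and 10.03 in the AD mice, while miR-33-3p stays between 3.45 and 4.39.

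Neither arm is abundant in the cortex. By mean RPM over the 4 libraries, miR-33-5p ranked 407th and miR-33-3p 440th of 942 miRNAs. Within a library, between 44.2% and 50.8% of the detected miRNAs had more reads than miR-33-5p, and between 50.3% and 53.1% had more than miR-33-3p. The miRNAs nearest to miR-33-5p in mean level were miR-344c-3p, miR-6418-3p, miR-3060-3p and miR-144-3p, at means between 6.32 and 6.54 RPM. miR-344c-3p also lay higher in both AD mice (7.24 RPM in APP3, 7.09 in APP4) than in both wild-type mice (5.52 in WT1, 5.84 in WT2). So did miR-3060-3p, with 6.72 RPM in APP3 and 7.35 in APP4 against 5.21 in WT1 and 5.98 in WT2, and neither was called within a sibling pair by the test described further on. The groups of miR-6418-3p and miR-144-3p overlapped, and miR-6418-3p was highest in APP3 (9.03 RPM) and lowest in APP4 (4.67 RPM).

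Within the sibling pairs, miR-33-5p was 2.18-fold higher in APP4 than in WT1 and 1.57-fold higher in APP3 than in WT2. On the log2 scale, with 0.5 read added to each count, these differences were 1.12 (SE 0.17) and 0.65 (SE 0.19), with SE for counting error only. Of the 623 miRNAs, 25 had a larger increase in the first pair and 40 in the second. miR-33-3p was higher in the AD mouse of the first pair, by 0.28 (SE 0.22), and lower in that of the second, by -0.30 (SE 0.22), and both of these 95% counting intervals include 0. Across the sibling pairs, the log2 difference of miR-33-5p was 0.54 (SE 0.18) for APP3 against WT1 and 1.23 (SE 0.18) for APP4 against WT2. These values share their libraries with the sibling pairs and add no mouse. The scaling matters most for APP4: with TMM library sizes, which hold the bulk of the miRNAs level, each log2 difference of APP4 against WT1 moved by -0.25 and each of APP3 against WT2 by -0.02. miR-33-5p was then higher by 0.87 and 0.63, and its groups still did not overlap, with the lower AD mouse 1.33-fold above the higher wild-type mouse. miR-33-3p was then higher by 0.03 in the first pair and differed by -0.31 in the second.

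**Figure D2:**
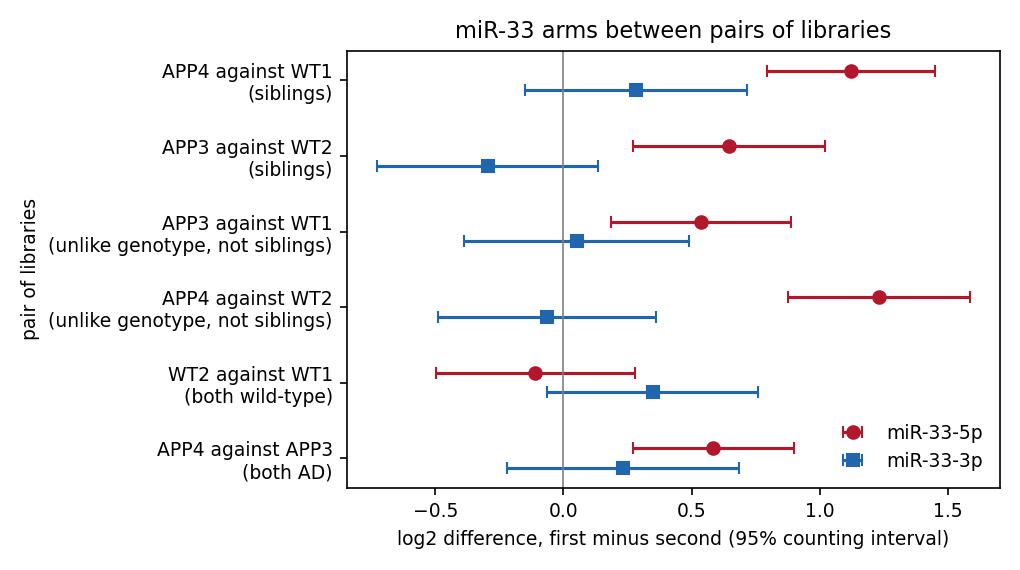
Log2 difference of miR-33-5p (circles) and miR-33-3p (squares) between pairs of libraries, first minus second, with 95% intervals for counting error. The 4 comparisons of an AD with a wild-type mouse lie between 0.54 and 1.23 for miR-33-5p, and that of APP4 with APP3 lies at 0.59.

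Mice of the same genotype were not part of the choice of miR-33, and here the arms were tested. The question was how far each arm differed between mice of one genotype. Such mice belong to different sibling pairs, so a difference between them also holds any difference between the pairs. The test, which the paper's methods name, was Fisher's exact test (2-sided) of the reads of a miRNA against the other miRNA reads of both libraries. A miRNA was called where the false discovery rate (FDR, by Benjamini-Hochberg over all miRNAs with a read) was under 0.05 and the fold was 1.5 or more. The test speaks of the libraries compared and not of genotypes.

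Between the AD mice, miR-33-5p was higher in APP4 than in APP3, with 10.03 against 6.68 RPM. The log2 difference was 0.59 (SE 0.16, FDR 0.000821 by Fisher's exact test), and the fold of 1.5003 lay only just past the limit for a call. With TMM library sizes the fold was 1.37 (FDR 0.0145), which is no longer called. In this comparison 8.05% of the 907 miRNAs with a read were called. The median absolute log2 difference of the 623 miRNAs was 0.25. On the log2 scale, the difference between the AD mice (0.59) was close to that between APP3 and its wild-type sibling WT2 (0.65). With TMM library sizes they were 0.45 and 0.63.

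Between the wild-type mice, miR-33-5p differed by -0.11 (SE 0.20) for WT2 against WT1, and the FDR was 0.766 by Fisher's exact test. Its 95% counting interval ran from -0.50 to 0.28, which leaves room for a change of some size in either direction. miR-33-3p differed by 0.35 (SE 0.21) between the wild-type mice (FDR 0.215 by Fisher's exact test) and by 0.23 (SE 0.23) between APP4 and APP3 (FDR 0.564). In the wild-type comparison 10.1% of 879 miRNAs were called.

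Over the 4 mice, the quasi-likelihood test of edgeR, on TMM-normalized counts, gave miR-33-5p a log2 difference of 0.76 (SE 0.24) and miR-33-3p one of -0.15 (SE 0.23), AD minus wild-type. This SE includes the variation between mice. Both arms passed edgeR's filter on low counts, as did 623 of the 942 miRNAs. With Benjamini-Hochberg adjustment 0 of the 623 miRNAs (0.0%) had an adjusted p under 0.05 in edgeR, while 36 had an unadjusted p under 0.05. DESeq2, run without this filter on all 942 miRNAs, also called 0, with 28 at an unadjusted p under 0.05. When each mouse was left out in turn, the edgeR difference of miR-33-5p lay between 0.51 (without APP4) and 0.97 (without APP3), and that of miR-33-3p between -0.27 and 0.02. No p-value is given for the arms, for the reason stated at the start. The paper's supplement also lists miR-33-5p as higher in AD mice when these 4 libraries were pooled by genotype, which adds no mouse. The paper's qRT-PCR, in a larger set of mice, gave miR-33-5p a smaller increase on the log2 scale. The labels do not say how RNA of one mouse was sampled further, so the variation between mice also holds that of dissection and library making.

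**Figure D3:**
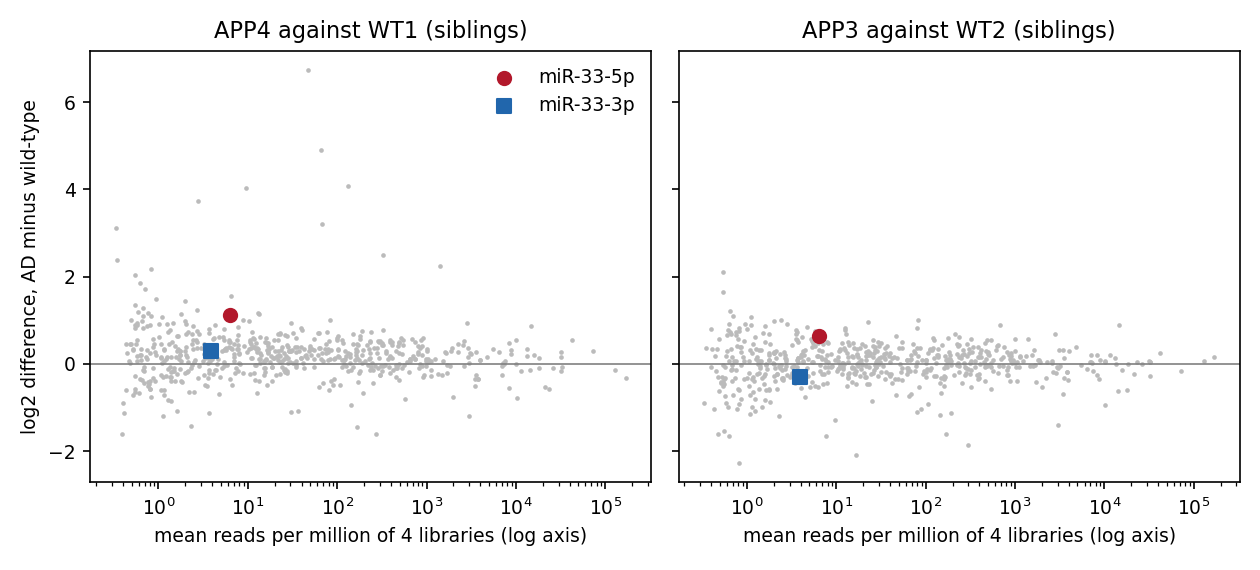
Log2 difference of the AD minus the wild-type sibling for 623 miRNAs (grey points) against their mean level on a log axis, for APP4 against WT1 and APP3 against WT2, with miR-33-5p (circle) and miR-33-3p (square) marked. miR-33-5p lies at 1.12 and 0.65, and miR-33-3p at 0.28 and -0.30, within the bulk of the points at its level.

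The arms of a hairpin are cut from it together, and usually one of them is kept in the silencing complex and the other is degraded. For miR-33 neither arm was rare, and the arms were nearest to even in WT2 and furthest from it in APP4. miR-33-5p took 57.1% of the reads of both arms in WT1 (95% Wilson interval 50.4 to 63.6) and 49.2% in WT2 (42.2 to 56.2). It took 65.1% in APP3 (58.6 to 71.2) and 70.5% in APP4 (64.8 to 75.6). The share was thus lower in both wild-type mice than in both AD mice, and the arms summed to 8.05 and 8.65 RPM in WT1 and WT2 and to 10.3 and 14.2 RPM in APP3 and APP4. Since the 5p share contains the reads of miR-33-5p, its order between the genotypes repeats the choice of miR-33 in part and was not tested.

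Between mice of one genotype the share was tested with Fisher's exact test (2-sided) on the reads of the arms. The log2 odds of 5p against 3p differed by -0.46 (SE 0.29) for WT2 against WT1, with an FDR of 0.313 by Fisher's exact test over 333 hairpins. For APP4 against APP3 they differed by 0.35 (SE 0.28), with an FDR of 0.541 over 336 hairpins. The 95% counting intervals ran from -1.03 to 0.11 and from -0.20 to 0.90. By this test, the arm share of 29.7% of the hairpins differed between the wild-type mice and that of 24.1% between the AD mice. For the sibling pairs, as a description, the log2 odds were higher by 0.84 (SE 0.28) in APP4 than in WT1 and by 0.95 (SE 0.29) in APP3 than in WT2. The arm share does not depend on how the libraries are scaled.

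As a mean over the libraries, a minor arm as large as that of miR-33 was uncommon. Of 339 hairpins with both arms in the table, 262 had at least 20 reads of both arms together in each library. The minor arm took a median of 4.13% of their reads, as the mean over libraries, and 39.1% for miR-33. Only 13 of the 262 hairpins had a larger minor arm. In 257 of them the same arm was the major one in all 4 libraries, and miR-33 was not one of these, because its 3p arm had 97 reads against 94 of its 5p arm in WT2. Ligation of adapters favours some ends over others, so the ratio of the arms within a library is not the ratio of their molecules.

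**Figure D4:**
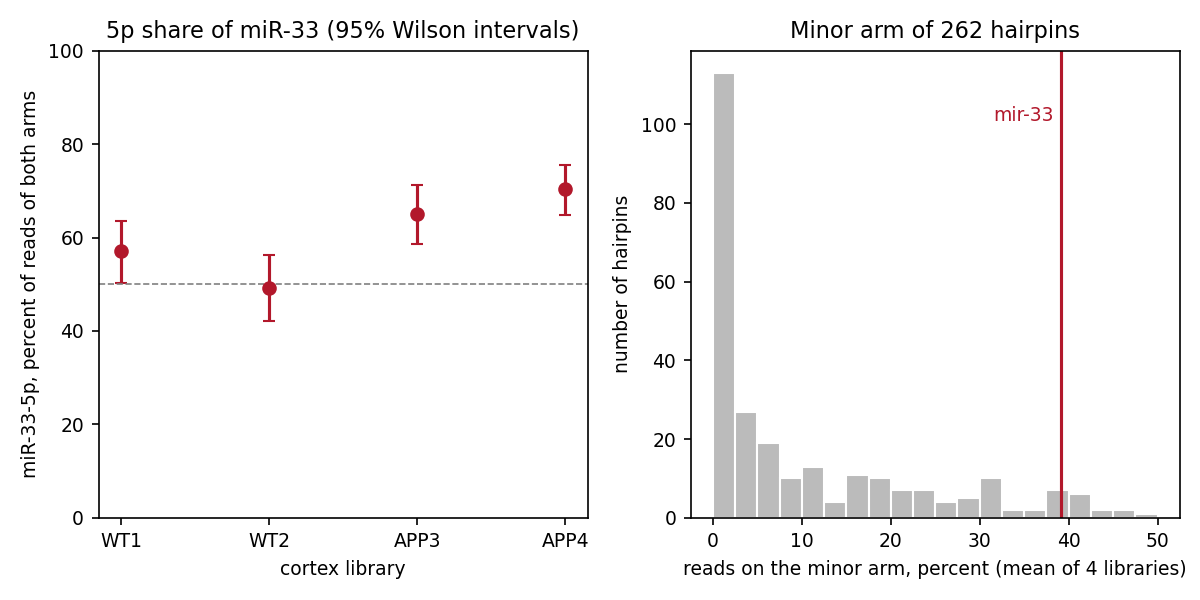
Left, share of miR-33-5p in the reads of both miR-33 arms in each library, with 95% Wilson intervals and a dashed line at 50%. Right, number of hairpins by the percent of reads on the minor arm, for 262 hairpins, with miR-33 marked at 39.1% against a median of 4.13%.

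The miRNAs whose pattern over the 4 libraries came nearest to that of miR-33-5p were found from the log2 RPM centred on the mean of the libraries, by the root mean square difference. The nearest were miR-5117-3p (0.11), miR-1964-3p (0.13), miR-3104-3p (0.14), miR-142-3p (0.16) and miR-19a-3p (0.18), where the median over 622 miRNAs was 0.47. This is a description over 4 libraries, and miR-33-5p was chosen for part of this pattern. Apart from miR-1964-3p, with between 3.99 and 7.56 RPM, these miRNAs were counted on between 10 and 65 reads per library. The other arm of its own hairpin, miR-33-3p, was at 0.49, and 335 of the 622 miRNAs came nearer to miR-33-5p than it did. For miR-33-3p the nearest pattern was that of miR-345-5p (0.01), which had 25.8 and 32.4 RPM in WT1 and WT2 and 26.7 and 31.4 RPM in APP3 and APP4.

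miR-142-3p is made in blood-derived cells and, in the brain, in microglia, so its place in this list was set beside the other markers of these cells. Its level was 1.88 and 1.45 RPM in WT1 and WT2, and 2.92 and 3.41 RPM in APP3 and APP4. Of the 3 markers of microglia and myeloid blood cells, 2, miR-142-3p and miR-142-5p, lay higher in both AD mice than in both wild-type mice, as did 27.0% of the 623 miRNAs tested. These 2 are arms of the same hairpin and so not independent markers. The groups of miR-223-3p overlapped, with 4.52 and 5.89 RPM in WT1 and WT2 and 6.07 and 5.72 RPM in APP3 and APP4. The summed level of the 3 markers was 61.1 and 81.6 RPM in the wild-type mice and 97.4 and 100.01 RPM in the AD mice, and none of them was at 0. Most of this sum was miR-142-5p, with 54.7 and 74.3 RPM in WT1 and WT2 and 88.4 and 90.9 RPM in APP3 and APP4. The part of these cells in the level of miR-33-5p was not tested. In whole cortex, more cells of a type and more RNA per cell cannot be told apart.

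The brain miRNAs miR-124-3p, miR-9-5p, miR-128-3p and miR-132-3p were abundant in each library and summed to between 74102 and 82219 RPM, as the label of cortex asks for. APP4, the mouse with the most miR-33-5p, also stood apart for the miR-182, miR-183 and miR-96 cluster and the miR-200 family, 8 miRNAs together. These are known from epithelia and sensory organs, summed to 5862 RPM in APP4 against 576 to 1024 RPM in the other libraries, and all 8 were called higher in APP4 than in WT1, where 9.68% of 899 miRNAs were. In the second pair 4 of the 8 were called lower in APP3 than in WT2, where 3.46% of 896 miRNAs were, and 0 were called higher. The set was split in direction there. miR-182-5p and miR-183-5p, its members with the most reads, were higher in APP3, with log2 differences of 0.57 and 0.58. Their FDR by Fisher's exact test was 4.5e-185 and 8.9e-48, and only the fold limit kept them from a call. miR-429-3p (-0.28) and miR-200c-3p (-1.53) were lower in APP3 without a call. Without APP4, the levels of miR-33-5p left are 6.68 RPM in APP3 and 4.60 and 4.26 RPM in the wild-type mice, and the order of APP3 and WT2 is one that miR-33 was chosen by. The part of what sets APP4 apart in the level of miR-33-5p was not tested.

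Other miRNAs reported to act on Abca1, the LDL receptor, the HDL receptor SR-BI or the SREBP pathway were followed beside miR-33, as a list of 22, all of which are in the table. The question was whether further miRNAs of cholesterol metabolism differed within the sibling pairs. In the first pair 7 of the 22 (31.8%) were called, 4 higher and 3 lower in APP4 than in WT1, where 11.6% of 899 miRNAs were called, 9.68% higher and 1.89% lower. In the second pair 4 of the 22 (18.2%) were called, 1 higher and 3 lower in APP3 than in WT2, where 6.81% of 896 miRNAs were called, 3.35% higher and 3.46% lower. In at least 1 pair 8 of the 22 were called, beside 15.0% of all 942. The list holds fewer low-count miRNAs, since 21 of the 22 passed edgeR's filter, against 623 of the 942. With at least 10 RPM in either library, 5 of the list were called in the first pair, beside 53 of 383 miRNAs. In the second pair 2 of the list were then called, beside 30 of 379 miRNAs. List members below this level, among them miR-122-5p and miR-144-3p, then dropped out as well, so these counts are not out of 22. In edgeR 0 of the 21 that passed the filter had an adjusted p under 0.05 with Benjamini-Hochberg adjustment, 2 had an unadjusted p under 0.05, and DESeq2 called 0.

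The list had no common direction. Its median log2 difference was 0.28 in the first pair, against 0.19 over the 623 miRNAs, and -0.06 in the second, against 0.04. With TMM library sizes the medians were 0.03 and -0.07, and 7 were called in the first pair, 3 higher and 4 lower, with miR-106b-5p no longer called and miR-148a-3p called lower (-0.76). Without miR-96-5p and miR-182-5p, left out after their values were seen because they belong to the miRNAs that set APP4 apart, 5 of 20 and 3 of 20 were called.

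Only miR-122-5p, the main miRNA of liver cells, was called in the same direction in both pairs, and it was lower in the AD mice. Its level was 4.45 and 2.17 RPM in WT1 and WT2 and 0.940 and 1.63 RPM in APP3 and APP4, with log2 differences of -1.43 and -1.19. It rested on between 20 and 116 reads, and in cortex it is a trace. The other two regulators called in both pairs, miR-96-5p and miR-301b-3p, went in opposite directions. miR-301b-3p, a reported regulator of the LDL receptor and Abca1, had 13.5 and 10.4 RPM in WT1 and WT2 and 18.2 and 8.50 RPM in APP3 and APP4, so the AD mice lay at both ends.

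miR-17-5p and miR-130b-3p had both AD mice above both wild-type mice, and miR-145a-5p and miR-122-5p had both below. For miR-130b-3p, the levels were 26.8 and 27.5 RPM in WT1 and WT2 and 38.1 and 33.6 RPM in APP3 and APP4, and its differences stayed under 1.5-fold. Thus 4 of the 22 did not overlap between the genotypes, 18.2% beside 36.0% of the 623 miRNAs tested. The 5 list members with the most reads, miR-26a-5p, miR-128-3p, miR-27b-3p, miR-30c-5p and miR-148a-3p, were not called in either pair, apart from the call of miR-148a-3p with TMM library sizes. miR-26a-5p, the most abundant, had 63785 and 77922 RPM in WT1 and WT2 and 69955 and 78105 RPM in APP3 and APP4, with log2 differences of 0.29 and -0.16. Of the remaining members, chosen for mention after their values were seen, miR-10b-5p was called lower in APP4 than in WT1 (log2 difference -1.61) and differed by 0.01 in the second pair. miR-185-5p was called lower in APP3 than in WT2 (-0.93) and differed by 0.15 in the first pair. Whether these differences between the pairs exceed those between mice was not tested, as each pair has 1 mouse of each genotype.

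**Figure D5:**
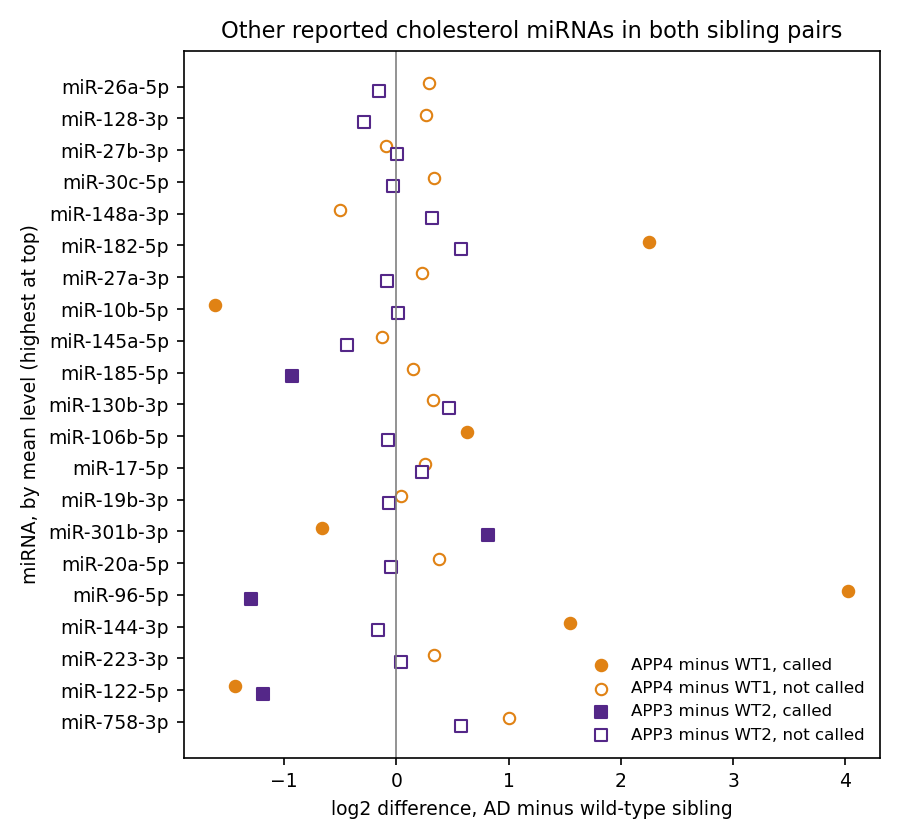
Log2 difference of the AD minus the wild-type sibling for 21 of the 22 other cholesterol miRNAs, ordered by mean level, for APP4 against WT1 (circles) and APP3 against WT2 (squares). Filled symbols passed both limits of Fisher's exact test, 7 in the first pair and 4 in the second, and miR-302a-3p, with 1 read over all libraries, is left out.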

How the data were processed

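Total RNA of the cortex of 4 mice was made into small RNA libraries and sequenced. The authors removed adapters, kept reads of 18 to 35 bases, matched them to miRBase 19 and counted the mature, length-variant and mutant reads of each mature miRNA in CLC Genomics Workbench. The paper's methods give at most 2 mismatches and 2 changed bases at each end, and also no mismatch against miRBase. The deposited counts are whole reads per mature miRNA and library, without normalization. The authors also deposited, as TPM, values that are RPM of clean reads, which were used here only to obtain the clean reads of each library. No column was left out. The paper's methods name GRCm38 and the submitters' processing notes mm9 and CASAVA 1.8, and positions here are on GRCm38 from RefSeq and GENCODE vM21, independent of the counts.

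Counts were scaled to the miRNA reads of each library, which set a 3-read level of 0.115 to 0.157 RPM. Pairs of libraries were compared by Fisher's exact test (scipy 1.17.1) and genotypes by the quasi-likelihood test of edgeR 4.0.16 (R 4.3.3) after filterByExpr and TMM, with DESeq2 1.42.0 as an alternative. The sibling pairs come from the paper's methods. Deviations of siblings from their genotype means correlated with r = 0.235 across 252 miRNAs. On simulated data, edgeR called 148 of 154 miRNAs changed 4-fold among 641 tested, with 5 false calls. Smaller changes, like that of miR-33-5p, were not simulated for edgeR. The Fisher rule for APP4 against WT1 called 123 of 190 changed 2-fold among 894, with 2 false calls. Its simulated counts held no variation between mice, so these false calls cover counting error only. Hairpins were folded with RNAfold 2.7.2. Alternatives were other library sizes, filters, fold limits and added reads, the sibling block, DESeq2 and each mouse left out.

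The members and lists were chosen with earlier results of these data known. Named are the arms of miR-33, the 5 miRNAs nearest to miR-33-5p in pattern and 4 in level, miRNAs of like sequence, list members called in both sibling pairs, not overlapping between genotypes or among the 5 with the most reads, and markers that set a library apart.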

Additional observations from a re-analysis of the deposited data

Results flagged for a closer look

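miR-33-3p was higher in the AD mouse of one sibling pair and lower in that of the other, with a log2 difference of 0.28 between APP4 and WT1 and of -0.30 between APP3 and WT2. The same held for miR-96-5p, with 4.03 and -1.29, and in the other direction for miR-301b-3p, with -0.66 and 0.81. Whether the pairs differ was not tested in any of these cases, as a pair holds only 1 mouse per genotype, and for miR-33-3p both counting intervals include 0.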

How the results depend on the processing

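Under the alternatives tried, the log2 difference of miR-33-5p between AD and wild-type mice lay between 0.51 (without APP4) and 0.97 (without APP3). It was 0.75 when the sibling pair was the block. Its sign was positive each time, which the choice of miR-33-5p for being higher in the AD mice largely fixed. The log2 difference of miR-33-3p lay between -0.27 (without WT1) and 0.02 (without WT2). The call of miR-33-5p between APP4 and APP3 was lost with TMM library sizes (0.45), with clean reads (0.51), with 5 reads added (0.57) and, by its size, with a limit of 2-fold, and was kept with at least 10 RPM in either library. In edgeR the number of called miRNAs rose from 0 to 2 with the sibling pair as a replicate block, and lay between 0 (without WT2) and 21 (without APP3) when a mouse was left out, with 3 without WT1 and 5 without APP4, the lone mouse then being assumed to vary like the others. With at least 10 RPM in either library, 53 miRNAs were called in APP4 against WT1, 30 in APP3 against WT2, 40 in WT2 against WT1 and 40 in APP4 against APP3, where fewer miRNAs were tested. With a limit of 2-fold the counts were 50, 23, 38 and 38, and 5 of the cholesterol list were called in either pair in place of 8. With TMM library sizes 39 of the calls between APP4 and WT1 were higher and 46 lower, in place of 87 and 17. Over hairpins with at least 50 reads, a limit chosen after seeing the data, the FDR of the miR-33 arm share by Fisher's exact test was 0.258 between the wild-type mice and 0.456 between the AD mice. Depth limits the arms of miR-33, since 76 to 191 reads leave an SE of at least 0.16 on each log2 difference.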
